A study of Rattus norvegicus with 14 samples.

Results

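AMPA receptors are the ion channels that carry most of the fast excitatory current at glutamate synapses. Their pore is built from the subunits GluA1 to GluA4, encoded by Gria1, Gria2, Gria3 and Gria4, and auxiliary proteins bound to the pore set how it gates and whether it reaches the synapse. Adding receptors to synapses or removing them is the best known way in which hippocampal synapses become stronger or weaker. The genes described here are the pore subunits Gria1 to Gria4, the auxiliary subunits Cacng2, Cacng3, Cacng8 and Cnih2, and the PDZ-domain partners Grip1 and Pick1, which bind the subunits' tails. The members are all probe sets of the array whose only gene symbol in the platform annotation is one of these 10 genes. They number 14 of the 15866 probe sets of the array that are not controls, and 10 of 10411 genes with a symbol of their own.

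The tissue was the microdissected dentate gyrus, the hippocampal region that holds the granule cells, of male Long-Evans rats 3 to 4 months old, with 1 Affymetrix RAE230A array for each of 14 rats. Every rat had been trained in a standard water maze 2 to 3 weeks before a single session of 8 trials in a pool it did not know. The 7 learning rats swam to a visible platform in a constant place among spatial cues, and the 7 control rats to a visible platform that moved, in surroundings without informative cues. Brains were taken after a swim of 90 s without a platform, given 1 h after training, so both groups share the earlier training, the swimming and that last swim. Each rat's array is a separate biological sample by its label. Values are log2 levels normalized by the authors, on which 1 unit is a 2-fold difference, and all differences below are learning minus control. Levels of different probe sets have no common scale, so no member's level is set against another's.

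Probe sets were tested when their mean over the 14 arrays was at least 4 log2 units, which 9387 probe sets reached. Of the members, 11 probe sets of 8 genes passed, and Gria4, Cacng8 and the dimmer Grip1 probe set did not. Array medians lay between 5.09 and 5.12, and any pair of arrays correlated at 0.995 to 0.998 across probe sets. Of 8 granule cell markers 4 were above the filter, with Calb1 at a mean of 10.8, Prox1 at 10.3, Trpc6 at 8.09 and Dsp at 6.59. The tissue was dissected, not sorted, so fewer cells of a type and less RNA per cell cannot be told apart. Marker means of several cell types averaged higher or lower in the learning arrays, and these differences were not tested. That of the 4 granule cell markers ran from 8.60 to 8.99 in control arrays and from 8.87 to 9.11 in learning arrays, where all but learning replicate 1 lay above every control array. Its difference was 0.16, with Dsp at 0.44, Trpc6 at 0.15, Prox1 at 0.08 and Calb1 at -0.03. The mean of 6 CA1 pyramidal cell markers ran from 7.36 to 8.22 in control arrays and from 7.82 to 8.13 in learning arrays. Its difference was 0.28, to which Wfs1 contributed most, at 0.95. Mpped1 was at 0.37, Fibcd1 at 0.31, Dkk3 at 0.09, Lmo3 at 0.0025 and Itpka at -0.05. The 2 choroid plexus markers above the filter averaged 7.39 in control and 6.47 in learning arrays without overlap, carried by Ttr at -1.78 with Enpp2 at -0.04. The mean of 8 meningeal markers spread widely in both groups, from 5.09 to 7.93 in control and from 4.88 to 8.03 in learning arrays. Its difference was -0.37, and that of the microglia marker mean was -0.13. The microglia mean overlapped, from 7.66 to 8.11 in control and from 7.61 to 8.05 in learning arrays. The other marker means lay between -0.06, for astrocytes, and 0.02, for oligodendrocytes. Such means can hold genes of opposite sign. The CA3 pyramidal cell markers were Bok at 0.29, Chgb at 0.16, Grik4 at 0.13, Cadm1 at -0.27 and Elavl4 at -0.27. The interneuron markers were Reln at 0.27, Npy at 0.12, Pvalb at -0.01, Kit at -0.15 and Gad1 at -0.19. Of the 4 mossy cell markers listed 0 passed the filter, so these cells were not covered.

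Of the members Gria1 showed the largest difference between the groups. It encodes GluA1, the subunit whose phosphorylated tail takes part in the delivery of receptors to synapses during potentiation. Its control values ran from 9.89 through a median of 10.33 to 10.77, and its learning values from 9.54 through 9.75 to 10.52. In 5 of 7 learning rats Gria1 lay below every control rat. The other learning rats, replicates 1 and 2, were at 10.52 and 10.37, inside the control range, so the groups overlapped. The means were 10.33 ± 0.27 in control rats and 9.89 ± 0.39 in learning rats (SD, n = 7 each). The difference was -0.45 ± 0.16 log2 units (SE), with a 95% confidence interval from -0.79 to -0.10, which is 1.36-fold in favour of control tissue. In limma's moderated test p was 0.0152 before and 0.280 after adjustment over all 9387 probe sets, so Gria1 did not pass. Leaving out single arrays moved the difference between -0.55, without learning replicate 1, and -0.37, without control replicate 6.

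Gria2, which encodes GluA2, the subunit that makes the channel impermeable to calcium once its RNA has been edited, was measured by a pair of probe sets of nearly the same signal. The first ran from 11.61 to 12.02 among controls (median 11.84) and from 11.63 to 11.95 among learners (median 11.83). The learning range lay inside the control range. Its difference was -0.03 ± 0.07 (SE; 95% confidence interval -0.17 to 0.11; adjusted p = 0.854 in limma). The second gave -0.06 ± 0.11 (SE; adjusted p = 0.835 in limma). Its values ran from 11.53 to 12.10 in the control group (median 11.73) and from 11.30 to 12.00 in the learning group (median 11.76), and its 95% confidence interval from -0.29 to 0.17.

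Gria3 encodes GluA3, which pairs with GluA2 in a second common receptor type of forebrain neurons. Its brighter probe set ran from 9.93 to 10.37 among controls (median 10.13) and from 9.91 to 10.36 among learners (median 10.08), with a difference of -0.03 ± 0.08 (SE; adjusted p = 0.878 in limma). Both groups covered nearly the same range on it. The dimmer Gria3 probe set was more scattered, from 5.68 to 6.75 among controls (median 6.48) and from 5.57 to 7.01 among learners (median 6.06). On it 6 of 7 learning rats lay below the control median, but learning replicate 1 was the highest of all arrays, and the difference was -0.17 ± 0.20 (SE; adjusted p = 0.732 in limma). Single rats moved it: leaving out learning replicate 1 gave -0.31, control replicate 5 -0.27, control replicate 6 -0.10 and learning replicate 5 -0.07.

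Gria4 encodes GluA4, a subunit that in the adult hippocampus is found mainly in interneurons. All 14 arrays lay between 2.55 and 2.58, a range of 0.03 log2 units, where the median range was 0.10 for probe sets below the filter and 0.60 for those tested. Values this flat are near the background that the normalization assigns, so they give neither a level nor a difference of Gria4. The Gria4 probe set was therefore not tested, and its ratios below carry only the other gene.

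**Figure D1:**
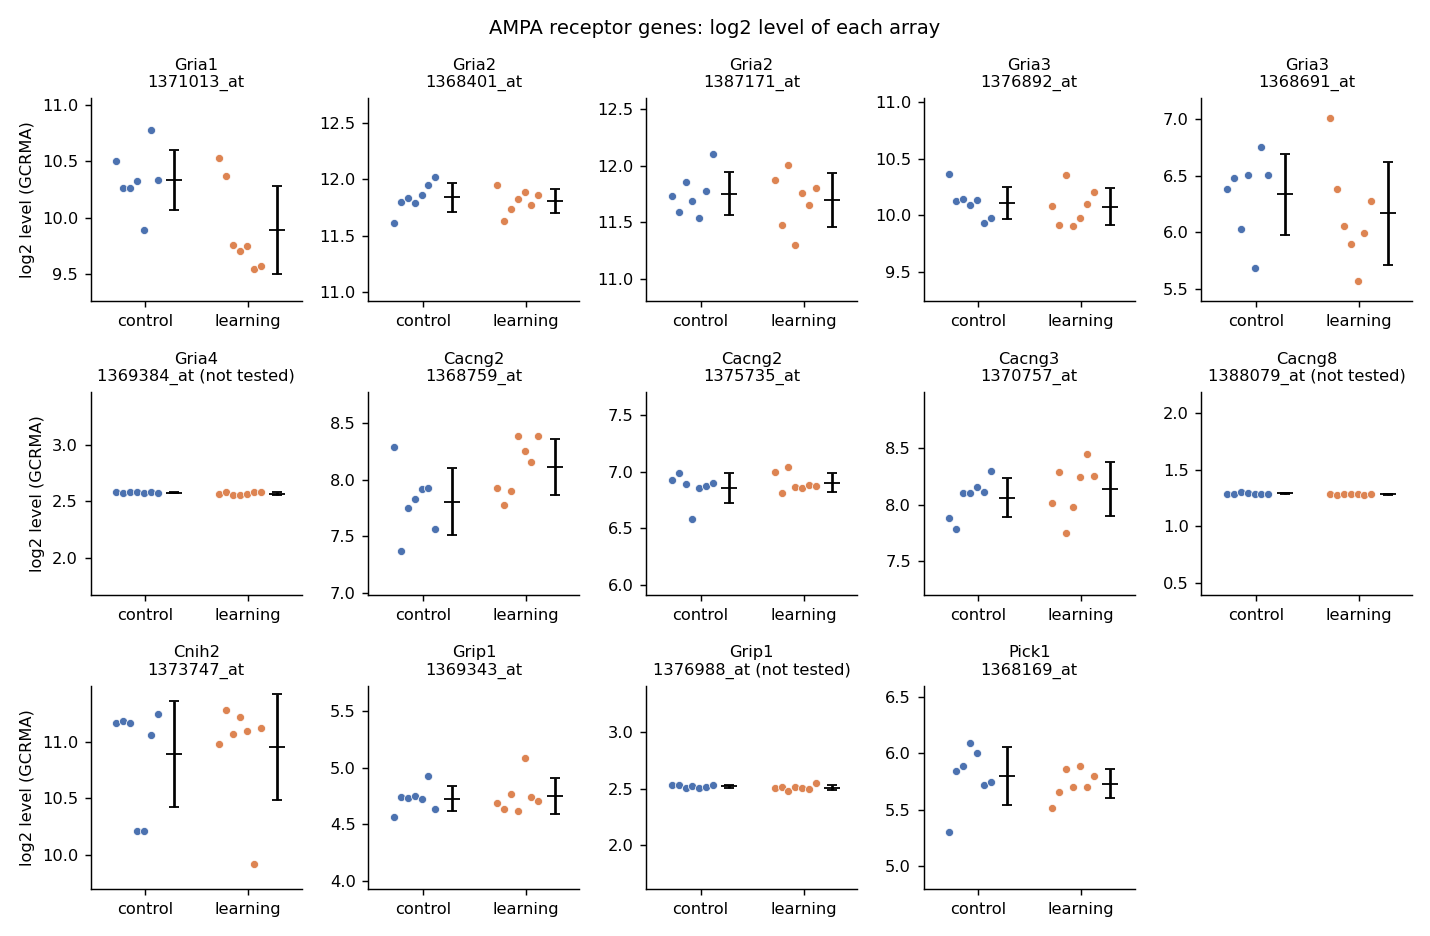
Log2 level of each of the 14 member probe sets, with 1 point per array in the order of replicate number, which has no meaning of its own (control blue, learning orange), and the mean with its SD beside each group; every panel spans 1.8 log2 units. Gria1 shows 5 learning rats below all control rats and 2 among them, Cnih2 shows 2 control rats and 1 learning rat about 1 unit below the rest, and Gria4 and Cacng8 are flat.

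Among the auxiliary subunits, Cacng2 differed most between the groups. It encodes stargazin, the first known of the transmembrane AMPA receptor regulatory proteins, which carry receptors to the membrane and hold them at the scaffold PSD-95. Control values ran from 7.37 to 8.29 (median 7.83) and learning values from 7.77 to 8.39 (median 8.15). In the learning group 6 of 7 rats lay above the control median, and 2 lay above every control rat, while 3 control rats lay below every learning rat. The difference was 0.31 ± 0.13 (SE; 95% confidence interval 0.02 to 0.59), or 1.24-fold. Its unadjusted p was 0.0370, and its adjusted p in limma was 0.350. The dimmer Cacng2 probe set did not show it, with 6.58 to 6.99 in control rats and 6.81 to 7.04 in learning rats and a difference of 0.04 ± 0.06 (SE; adjusted p = 0.783 in limma).

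Cacng3, a close relative of Cacng2 in the same protein family, ran from 7.78 to 8.30 among controls (median 8.10) and from 7.75 to 8.45 among learners (median 8.25). The groups overlapped almost entirely, with a difference of 0.08 ± 0.10 (SE; adjusted p = 0.771 in limma). Cacng8, which encodes a further family member abundant in the hippocampus, was between 1.27 and 1.30 on all arrays. That range of 0.03 is as flat as that of Gria4, so the probe set says nothing of the gene in this tissue.

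Cnih2 encodes cornichon-2, which slows the closing of the channel and accompanies newly made receptors on their way out of the endoplasmic reticulum. Its values fell into separate levels in both groups. Of the control rats 5 lay between 11.06 and 11.24, and replicates 4 and 5 lay at 10.21 each. Of the learning rats 6 lay between 10.98 and 11.28, and replicate 6 lay at 9.92. The low rats were about 1 log2 unit below the others of their group, and both groups held some. The difference of 0.06 ± 0.23 (SE; adjusted p = 0.926 in limma) therefore turned on single rats: it was 0.23 without learning replicate 6, -0.05 without control replicate 4 and -0.05 without control replicate 5.

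The PDZ partners showed little difference. Pick1, whose product binds the tails of GluA2 and GluA3 and takes part in their removal from the membrane, ran from 5.30 to 6.09 among controls (median 5.84) and from 5.51 to 5.89 among learners (median 5.70). The learning values lay inside the control range, with a difference of -0.07 ± 0.10 (SE; adjusted p = 0.793 in limma). Grip1, whose product anchors the same tails, ran from 4.57 to 4.93 among controls and from 4.62 to 5.09 among learners on the probe set that passed the filter. Its difference was 0.03 ± 0.07 (SE; adjusted p = 0.900 in limma), at a level close to the filter. Whether the normalization compresses differences at that level was not tested. The other Grip1 probe set lay between 2.48 and 2.55 on all arrays.

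Over the 11 tested member probe sets, 5 had higher and 6 lower learning means, at a median difference of -0.03 and a median absolute difference of 0.06. All 9387 tested probe sets had a median difference of 0.0050 and a median absolute difference of 0.08. In limma 0 member probe sets passed an adjusted p of 0.05, where 0% of all tested probe sets did. At an unadjusted p below 0.05 there were 2 member probe sets, Gria1 and the brighter Cacng2 probe set, where 13.1% of all tested probe sets lay below it. With so few members that count is near the background and is not a result about the family. The groups did not overlap for 0 member probe sets, against 0.405% of all tested. Cacng2 was no longer below 0.05 without control replicate 2, 3, 4 or 7 or learning replicate 4, 5, 6 or 7, each left out singly, while Gria1 stayed below it in all 14 such fits. Neither was below it with the CA1 marker mean, the granule cell marker mean or the beta-actin measure described below as covariate. In limma the unadjusted p was then 0.182, 0.0716 and 0.0596 for Gria1, and 0.137, 0.347 and 0.0818 for Cacng2.

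**Figure D2:**
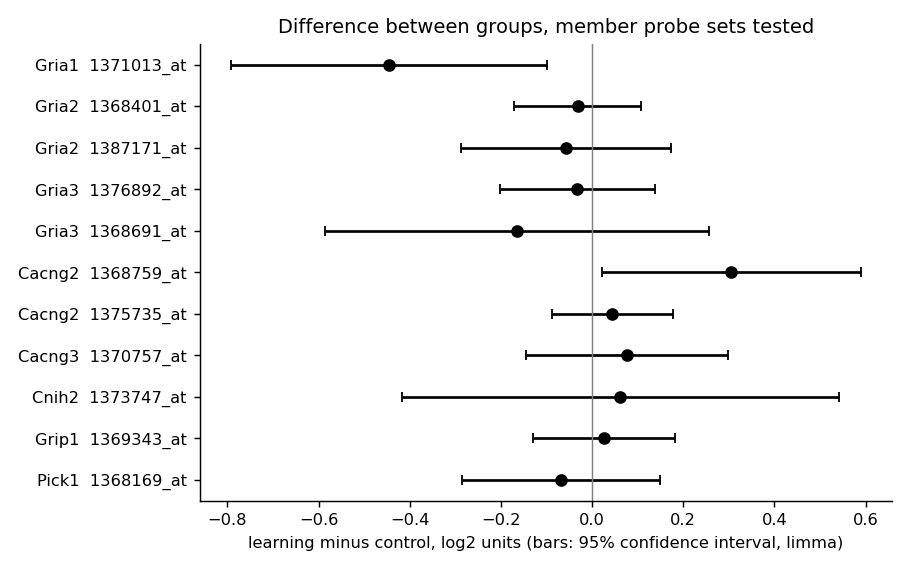
Difference between the groups (learning minus control, log2 units) for the 11 tested member probe sets, with bars for the 95% confidence interval from limma. The intervals of Gria1, at -0.45, and of the brighter Cacng2 probe set, at 0.31, lie to the left and right of 0, and those of the other 9 include it.

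Subunit ratios ask whether the make-up of the receptor transcripts, and not their sum, differed between the groups. Within each array the log2 level of one gene's brightest probe set was subtracted from another's, and 10 such ratios were tested two-sided by exact permutation, using each of the 3432 ways to divide the arrays. The level of a ratio depends on the probe sets, so only its difference between the groups can be read. The Gria1 to Gria2 ratio ran from -1.97 through a median of -1.54 to -1.11 in control rats and from -2.28 through -2.12 to -1.26 in learning rats. The same 5 of 7 learning rats as for Gria1 alone lay below every control rat, and replicates 1 and 2 lay within the control range. The brightest probe sets of Gria2 and Gria3 differed by -0.03 each. In their group differences, ratios of another gene to them therefore largely restate that gene and are not second results. Single rats can still move, since 3 of 7 learning rats lay below every control rat in the ratio of Gria1 to Gria3. The difference of the Gria1 to Gria2 ratio was -0.41 ± 0.19 (SE), with an exact p of 0.0524 and a p of 0.189 adjusted over the 10 ratios. Without adjustment p was 0.0280 without control replicate 5, 0.0280 without learning replicate 1 and 0.0128 without learning replicate 2. It stayed above 0.05 in the other 11 such tests, up to 0.0979 without control replicate 1, where the difference was -0.35.

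The Gria1 to Gria3 ratio differed by -0.41 ± 0.22 (SE; exact permutation p = 0.0758, adjusted p = 0.189), and 3 of 7 learning rats lay below every control rat. The Gria2 to Gria3 ratio differed by 0.0008 ± 0.12 (SE; exact permutation p = 0.995), from 1.25 to 2.05 among controls and from 1.38 to 1.92 among learners. On these brightest probe sets the mean ratio was thus nearly equal in the groups, and rats within a group spread more widely than the groups differed. The dimmer Gria3 probe set, which differed by -0.17, does not enter this ratio. The Gria1 to Gria4 ratio, with Gria4 flat, restates Gria1 at -0.44 (exact permutation p = 0.0373, adjusted p = 0.189), and the Gria2 and Gria3 ratios to Gria4 were -0.02 each (exact permutation p = 0.731 and 0.786).

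For the auxiliary subunits set against Gria2, Cacng2 gave the largest difference, at 0.34 ± 0.16 (SE; exact permutation p = 0.0699, adjusted p = 0.189). It ran from -4.46 to -3.33 among controls and from -4.02 to -3.44 among learners, with 3 control rats below every learning rat. Without control replicate 1, the control rat with the most Cacng2, it was 0.45 (exact permutation p = 0.00466), and without control replicate 7 or 2, those with the least, it was 0.27 each (exact permutation p = 0.132 and 0.129). The Cacng3 ratio differed by 0.11 ± 0.11 (SE; exact permutation p = 0.351), with 4 of 7 learning rats above every control rat and the other 3 within the control range. For Cacng3 alone, 1 learning rat lay above every control rat. The difference of the ratio ranged from 0.05 without learning replicate 6 to 0.16 without learning replicate 3. The Cnih2 ratio differed by 0.09 ± 0.26 (SE; exact permutation p = 0.764), and the Cacng8 ratio, with Cacng8 flat, by 0.03 (exact permutation p = 0.688). None of the 10 ratios passed after adjustment.

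**Figure D3:**
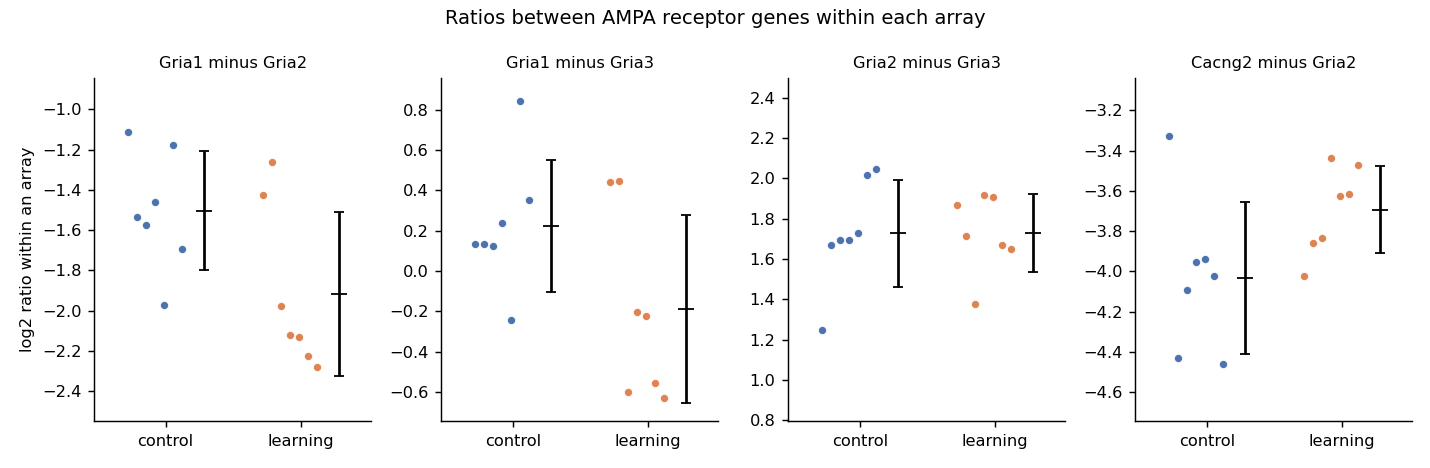
Log2 ratio of one gene's brightest probe set to another's within each array, with 1 point per array (control blue, learning orange) and the mean with its SD beside each group; every panel spans 1.7 log2 units. The ratios of Gria1 to Gria2 and to Gria3 average about 0.41 lower in learning rats, that of Gria2 to Gria3 is level, and that of Cacng2 to Gria2 averages 0.34 higher, with overlapping groups in each.

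Rats also varied within their groups. After group means were removed, 55 pairs of member probe sets were correlated over the 14 arrays, with p values from 100000 permutations within groups. The strongest pair was Gria1 with the dimmer Gria3 probe set, at a Pearson r of 0.79 (permutation p = 0.0013, adjusted p = 0.0704) and a Spearman rho of 0.79 (permutation p = 0.0024, adjusted p = 0.134). The r was 0.85 within control rats, 0.76 within learning rats and 0.67 without learning replicates 1 and 2, the rats farthest from the median in Gria1. None of the 55 pairs passed after adjustment. With the brighter Gria3 probe set the r of Gria1 was -0.26 (permutation p = 0.399) and the rho -0.34 (permutation p = 0.259), and -0.18 for r without the same rats. Gria1 and Gria2 had an r of 0.01 and a rho of -0.01 (permutation p = 0.975 and 0.988), and an r of 0.0038 without those rats.

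Probe sets of the same gene did not track each other closely either. The r was 0.40 for the Gria2 probe sets (permutation p = 0.165; rho 0.44, permutation p = 0.126), -0.08 for those of Gria3 (permutation p = 0.801; rho -0.38, permutation p = 0.206) and -0.23 for those of Cacng2 (permutation p = 0.462; rho -0.32, permutation p = 0.267). Without the 2 rats farthest from the median these values of r were 0.37, -0.08 and -0.25. Gria1 was measured by a single probe set, so its difference has no second measurement on these arrays.

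Values of RNA quality and of cell markers that accompanied Gria1 are given here, and their part in its difference was not tested beyond the fits named. The hexokinase control, for which probe sets lie at the 3' and 5' ends of the transcript, had a 3' minus 5' difference of 1.13 and 1.09 in learning replicates 1 and 2, the rats with high Gria1. In the other learning rats it was 1.56 to 1.94, and in control rats 1.18 to 1.75. Across arrays its r with Gria1 was -0.53 (permutation p = 0.0737; rho -0.45, permutation p = 0.120; adjusted p 0.908 and 0.858 over 143 relations of members with sample measures). That relation rests on those rats, since r was -0.04 without them, 0.24 within control rats and -0.88 within learning rats. The groups' means of this measure were 1.49 and 1.53, and with it as a covariate the Gria1 difference was -0.42 (unadjusted p = 0.0108 in limma). With the beta-actin 3' minus 5' difference, at 1.32 in control and 1.41 in learning rats, as covariate it was -0.37 (unadjusted p = 0.0596 in limma). With the CA1 marker mean as covariate it was -0.27 (unadjusted p = 0.182 in limma), and with that of 8 meningeal markers -0.47 (unadjusted p = 0.0123 in limma). The CA1 marker mean and Gria1 had an r of -0.39 (permutation p = 0.126; rho -0.20, permutation p = 0.482), at -0.83 within control and 0.10 within learning rats, and -0.63 without learning replicates 1 and 2. The choroid plexus marker mean had the smallest permutation p with Gria1 of these measures, at an r of -0.49 (permutation p = 0.0130, adjusted p = 0.611; rho -0.38, permutation p = 0.151, adjusted p = 0.858). That r was -0.82 within control rats, -0.22 within learning rats and -0.69 without the same pair of rats. With the choroid plexus marker mean as covariate the Gria1 difference was -0.83 (unadjusted p = 0.0036 in limma), in a fit where the covariate does not overlap between the groups. With the granule cell marker mean, whose r with Gria1 was -0.06 (permutation p = 0.839; rho 0.13, permutation p = 0.666; r 0.23 without the same rats), it was -0.42 (unadjusted p = 0.0716 in limma).

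Cacng2 was at 0.27 with the CA1 marker mean as covariate (unadjusted p = 0.137 in limma) and at 0.29 with the beta-actin measure (unadjusted p = 0.0818 in limma). It was 0.30 with the meningeal marker mean (unadjusted p = 0.0466 in limma) and 0.29 with the hexokinase measure (unadjusted p = 0.0323 in limma). With the granule cell marker mean it was 0.16 (unadjusted p = 0.347 in limma) and with the choroid plexus marker mean 0.05 (unadjusted p = 0.796 in limma). Of the sample measures, the CA3 marker mean had the smallest permutation p with Cacng2, at an r of 0.65 (permutation p = 0.0187, adjusted p = 0.611; rho 0.60). Next came the oligodendrocyte precursor marker mean, at 0.59 (permutation p = 0.0206, adjusted p = 0.611; rho 0.69). Neither was used as a covariate.

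**Figure D4:**
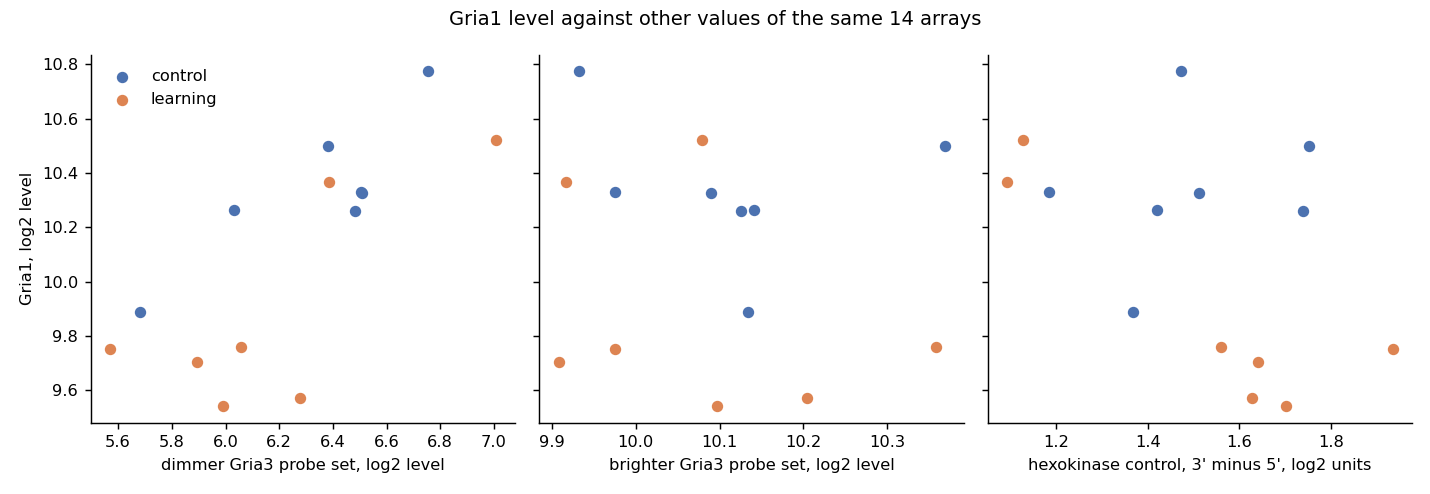
Gria1 log2 level of each array (y axis) against the dimmer Gria3 probe set, the brighter Gria3 probe set and the 3' minus 5' difference of the hexokinase control, with control arrays in blue and learning arrays in orange. Gria1 rises with the dimmer Gria3 probe set in both groups (r = 0.79 after group means were removed), not with the brighter one (r = -0.26), and the learning rats with high Gria1 have the lowest hexokinase differences, 1.13 and 1.09.

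Of 6696 other genes, each by its brightest tested probe set, those most like Gria1 within groups over the 14 arrays were Hpcal4, a neuronal calcium sensor (r = 0.93), Tmem30a, a subunit of phospholipid flippases (r = 0.90), and Tnrc6b, a component of the microRNA silencing complex (r = 0.90). Their differences between the groups were -0.41 for Hpcal4, -0.12 for Tmem30a and -0.08 for Tnrc6b. For Gria2 they were Armcx3 (r = 0.88), Nr1d2, a nuclear receptor of the circadian clock (r = 0.84), and Clstn2, a synaptic calsyntenin (r = 0.82). For the brighter Gria3 probe set they were Msl1, Ankrd42 and Mblac1, with r between 0.81 and 0.84. These are the highest of many values over few arrays and are given as a description. Those of Gria4 compare a flat signal and are not given.

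Other genes that act on AMPA receptors were taken from a list of 81 genes that are not members, of which 66 were on the array with a single symbol and 60 passed the filter. Of these, 35 had higher and 25 lower learning means, at a median difference of 0.03. In limma 0 passed an adjusted p of 0.05 and 10 had an unadjusted p below 0.05, 4 higher and 6 lower, which can be set beside the 13.1% of all tested probe sets. They lay in every group of the list but the scaffolds and membrane anchors.

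Of the RNA editing genes, the brightest probe sets of Adarb1 and Adar had differences of opposite sign that did not pass adjustment, and Adarb2 was below the filter. Adarb1 encodes ADAR2, the deaminase that edits the Gria2 transcript at the site that closes the pore to calcium. It ran from 10.47 to 10.89 among controls (median 10.76) and from 10.13 to 10.59 among learners (median 10.45), with a difference of -0.26 ± 0.08 (SE; unadjusted p = 0.0063, adjusted p = 0.236 in limma). A second Adarb1 probe set pointed the same way at -0.39 ± 0.14 (SE; unadjusted p = 0.0150, adjusted p = 0.280 in limma). Adar, which encodes the related deaminase ADAR1, ran from 6.85 to 7.28 in control and from 7.05 to 7.50 in learning rats, a difference of 0.19 ± 0.07 (SE; adjusted p = 0.302 in limma). Its other probe set, below the filter, differed by -0.14. Editing itself cannot be read from these arrays.

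Of 7 tested auxiliary and receptor-complex genes outside the members, 4 averaged higher and 3 lower. Prrt1, which encodes a protein of native AMPA receptor complexes, had the smallest p of the 60 genes. It ran from 10.76 to 11.02 among controls (median 10.90) and from 10.41 to 10.87 among learners (median 10.68), a difference of -0.25 ± 0.07 (SE; unadjusted p = 0.0025, adjusted p = 0.210 in limma). Nrn1, which encodes neuritin, a small protein also found with these receptors, differed by -0.22 ± 0.08 (SE; adjusted p = 0.256 in limma). The remaining regulatory proteins of the Cacng2 family on the list, Cacng4, Cacng5 and Cacng7, were below the filter.

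Of 13 kinase and phosphatase genes, 9 averaged higher and 4 lower. Camk2a, whose kinase phosphorylates GluA1 and stargazin, differed by 0.59 ± 0.21 (SE; adjusted p = 0.263 in limma), from 9.17 to 10.40 among controls and from 10.06 to 11.03 among learners. Its other probe sets gave 0.23 and -0.14. Fyn, a tyrosine kinase of the synapse, differed by -0.21 ± 0.07 (SE; adjusted p = 0.251 in limma), with -0.09 on its second probe set. Ppp3cb, a catalytic subunit of calcineurin, differed by 0.17 (unadjusted p = 0.0237 in limma).

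Of 23 genes of endocytosis and recycling, 10 averaged higher and 13 lower. Nsf, the ATPase that binds the GluA2 tail and frees it from PICK1, differed by -0.13 ± 0.05 (SE; unadjusted p = 0.0169, adjusted p = 0.289 in limma) and lay in one direction on all its probe sets, with -0.15 and -0.16 on the others. Ap2b1, a subunit of the clathrin adaptor AP-2, differed by 0.17 ± 0.07 (SE; adjusted p = 0.303 in limma), but by 0.01 on its second probe set. Myo5a, a myosin motor, differed by -0.44 (unadjusted p = 0.0407 in limma). Of 7 tested assembly and editing genes, 5 averaged higher and 2 lower, and Porcn, Cpt1c, Sacm1l, Abhd6 and Abhd12 lay between -0.04 and 0.08. Of 10 scaffold and anchor genes, 7 averaged higher and 3 lower. The smallest p values were those of the pentraxin Nptx1 at 0.13 ± 0.07 (SE; adjusted p = 0.426 in limma) and Epb41l1, whose product links GluA1 to the cytoskeleton, at 0.07 ± 0.05 (SE; adjusted p = 0.571 in limma). Other Epb41l1 probe sets gave 0.05 and, below the filter, -0.47. By the brightest probe set of each gene, the largest difference in that list was that of Dlg4, which encodes the scaffold PSD-95, at -0.22 ± 0.17 (SE; adjusted p = 0.592 in limma).

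**Figure D5:**
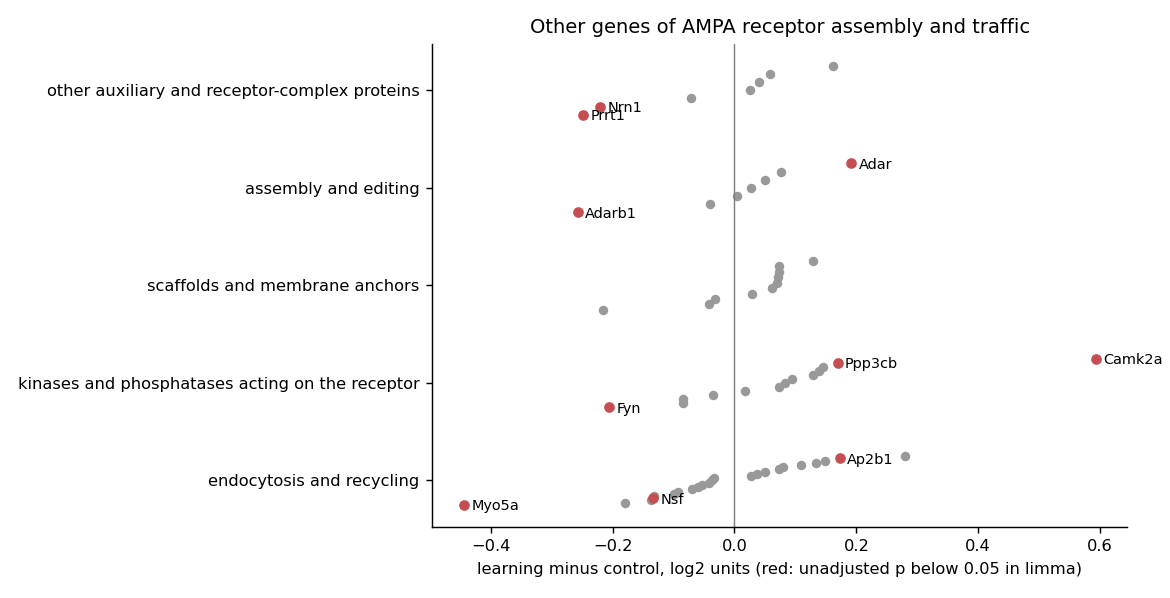
Difference between the groups (learning minus control, log2 units) for the 60 tested genes of AMPA receptor assembly, scaffolding, phosphorylation and traffic that are not members, by list, with 1 point per gene. Named red points have an unadjusted p below 0.05 in limma: 4 lie above 0, up to Camk2a at 0.59, and 6 below, down to Myo5a at -0.44, and 0 passed adjustment over all probe sets.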

How the data were processed

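Each rat's total RNA, biotin-labelled, was measured on 1 Affymetrix RAE230A array, per the labels' protocols. The deposited values are log2 levels per probe set. Per the submitters' processing notes the authors used GCRMA; no source used here states its version or settings. Groups and replicate numbers came from sample titles. The number of arrays limits the precision. The labels give no batch or scan date.

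The table holds 15923 probe sets, 57 of them controls. In the platform annotation 12783 have 1 gene symbol, 312 several and 2771 none listed. Those averaging 4 or more over the arrays were fitted with limma 3.58.1 in R 4.3.3 (lmFit, eBayes, no covariate), with Benjamini-Hochberg adjustment over all 9387 and a threshold of 0.05. The script was tested on simulated data. Ratios used two-sided exact permutation tests, whose smallest p is 0.000583.

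Members and lists were chosen with earlier results of these data known. Named besides the members are the 2 genes of smallest p per list and the 3 most like each of Gria1, Gria2 and Gria3. Those most like Gria4 were to be named as well but are not given. Ppp3cb, Myo5a, the remaining assembly genes, Cacng4, Cacng5 and Cacng7, and Dlg4 were added after their values were seen. So were the markers Wfs1, Mpped1, Fibcd1, Lmo3, Trpc6 and Dsp and the values of Ttr, Enpp2, Prox1, Calb1, Dkk3 and Itpka. The same holds for the CA3 pyramidal cell and interneuron markers named. Alternatives were other filters, normalizations, priors, weights for arrays, a block for the replicate number, marker means as covariates and each array left out, and, chosen after seeing the data, the 3' minus 5' measures and the granule cell and choroid plexus marker means as covariates. Same-numbered arrays correlated at -0.28 to 0.26 in their deviations from group means, so the numbers were not taken as pairs. Figures were drawn with matplotlib 3.10.9.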

Additional observations from a re-analysis of the deposited data

Results flagged for a closer look

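Among 48 sets of 7 values, one for each member probe set and each ratio in each group, 5 had a rat far from the rest, its gap to the nearest exceeding the 95% critical value of Dixon's test; chance alone gives about 1 in 20. Cnih2 was at 9.92 in learning replicate 6, with the next learning rat at 10.98, and the Cnih2 to Gria2 ratio of the same rat was -1.85, with the next at -0.97. Grip1 was at 5.09 in learning replicate 5, with the next at 4.76, and without that rat the Grip1 difference was -0.03. The dimmer Cacng2 probe set was at 6.58 in control replicate 4, with the next at 6.86, and without that rat its difference was -0.0027. Cacng8 was at 1.302 in control replicate 3, with the next at 1.288, a gap within the flat signal near background. The causes were not tested.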

How the results depend on the processing

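No member probe set passed an adjusted p of 0.05 in limma under any of the 27 alternatives, and Gria1 and the brighter Cacng2 probe set kept their sign in all of them. The count of members at an unadjusted p below 0.05 was 2, became 0 with the CA1 marker mean, 0 with the granule cell marker mean and 0 with the beta-actin measure as covariate, was 2 with the choroid plexus marker mean (Gria1 and the dimmer Gria3 probe set, not Cacng2), and ranged from 1 to 2 with single arrays left out. Some signs turned: the second Gria2 probe set was 0.0061 and the dimmer Gria3 probe set 0.0782 (from -0.17) with the CA1 marker mean as covariate, the dimmer Gria3 probe set 0.0084, Cacng3 -0.0249 and Grip1 -0.0025 with the granule cell marker mean, the first Gria2 probe set 0.0238, Cnih2 -0.0786, Grip1 -0.0267 and Pick1 0.173 with the choroid plexus marker mean, and Cnih2 was -0.0217 with array weights. Averaging the probe sets of a gene gave a Gria1 to Gria3 ratio of -0.35 (exact permutation p = 0.0274), because the dimmer Gria3 probe set enters. With the replicate block, tested by all sign flips of the 7 differences between same-numbered rats, the Gria1 to Gria2 ratio stayed at -0.41 (exact p = 0.0469) and the Gria1 to Gria4 ratio at -0.44 (exact p = 0.0781); the block moved no other call. The numbers share no stated batch.

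With single arrays left out, the ratio differences ranged from -0.52 to -0.35 for Gria1 to Gria2, -0.52 to -0.31 for Gria1 to Gria3, -0.54 to -0.36 for Gria1 to Gria4, -0.0797 to 0.0596 for Gria2 to Gria3, -0.0603 to 0.0090 for Gria2 to Gria4, -0.0728 to 0.0194 for Gria3 to Gria4, 0.27 to 0.45 for Cacng2 to Gria2, 0.05 to 0.16 for Cacng3 to Gria2, -0.0052 to 0.0621 for Cacng8 to Gria2 and -0.0240 to 0.26 for Cnih2 to Gria2. The unadjusted exact p was 0.0128 to 0.0979 for Gria1 to Gria2, 0.0280 to 0.157 for Gria1 to Gria3, 0.0070 to 0.0670 for Gria1 to Gria4 and 0.0047 to 0.132 for Cacng2 to Gria2. Of the member probe sets whose sign turned, the second Gria2 probe set ranged from -0.11 to 0.0078, the brighter Gria3 probe set from -0.0794 to 0.0106, the dimmer Cacng2 probe set from -0.0027 to 0.0659, Cnih2 from -0.0530 to 0.23 and Grip1 from -0.0311 to 0.0589. The other causes were not tested. Gria4, Cacng8 and the dimmer Grip1 probe set are limited by signal near background.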
